A study of Homo sapiens with 6 samples.

Results

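THP-1 is a human line grown from an acute monocytic leukaemia, and 2 repositories distribute it, DSMZ in Germany and ATCC in the United States. The data are messenger RNA profiles of untreated THP-1 cells, 3 libraries from DSMZ cells and 3 from ATCC cells, and the question is how the stocks of the 2 repositories differ. Both stocks were grown side by side in medium with 20% serum at 37 °C and 5% CO2, kept for 48 h, split, and kept for another 24 h before harvest. The 3 expansions of each stock are labelled as independent, but each stock is a single sample of what its repository holds. The histone cluster genes are the 71 protein-coding genes of GENCODE 29 whose symbol starts with HIST1H, HIST2H, HIST3H or HIST4H, out of 34916 genes summed from the deposited transcripts.

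Histones are the proteins DNA is wound on. H2A, H2B, H3 and H4 form the nucleosome core, and H1 binds the linker between nucleosomes. The cluster genes, which have no introns in the coding part, are transcribed mainly in S phase to package new DNA, and their mRNAs are known to end in a conserved stem-loop instead of a poly(A) tail. The libraries were made from poly(A) RNA with a stranded kit, so what they hold of these genes is the RNA that passed poly(A) selection, and the amount of stem-loop mRNA in the cells is not measured. In bulk RNA of this kind, more cells in S phase and more RNA per cell cannot be told apart.

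The genes lie in 4 places. HIST1 holds 55 of them on chr6:25726132-27893843 (GRCh38, 2.17 Mb). HIST2 holds 12, of which 11 lie on chr1:149782689-149887916 and the other, HIST2H3PS2, at chr1:143905556-143905966. HIST3 holds 3 on chr1:228424845-228460470, and HIST4 is 1 gene, HIST4H4, at chr12:14767999-14771131. By type there are 6 H1, 17 H2A, 18 H2B, 15 H3 and 15 H4 genes.

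The stem-loop was searched in the annotated transcripts on the sense strand after the stop codon, as a 16-base pattern (GG, 2 free bases, CTTTT, 1 free base, AG, 2 free bases, CC). It was found in 44 of the 100 member transcripts the files list, belonging to 31 genes, in 5 versions. They are shown because they are the 3′ end signal that sets these mRNAs apart from other poly(A) RNA. Each is printed 5′ to 3′ on the gene's strand, with the 6 paired bases of each arm in capitals and the 4-base loop in lower case.
HIST1H2AC: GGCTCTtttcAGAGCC
HIST1H2BD: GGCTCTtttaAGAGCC
HIST1H4H: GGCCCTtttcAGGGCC
HIST2H4A: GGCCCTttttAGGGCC
HIST1H2AG: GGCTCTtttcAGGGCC
The sites lie at chr6:26124669-26124684 (plus strand) for HIST1H2AC, chr6:26158587-26158602 (plus) for HIST1H2BD, chr6:26285131-26285146 (minus) for HIST1H4H, chr1:149833032-149833047 (plus) for HIST2H4A and chr6:27133515-27133530 (plus) for HIST1H2AG, all in GRCh38 and 35 to 50 bases after the stop codon. The version of HIST1H2AC is shared by 17 genes of types H2A, H2B and H3. The version of HIST1H2BD is carried by 5 genes. The versions of HIST1H4H and HIST2H4A, with C and G in place of T and A in the stem, are carried by 5 and 3 genes, all of them H4. The last version occurred in HIST1H2AG alone.

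Histone genes in the clusters often stand head to head and share 1 promoter. Pairs of an H2A and an H2B gene are the most common, and 2 such promoters are printed because they represent a pair from HIST1 and a pair from HIST2 that are described below. The stretches run between the starts of both genes, on the plus strand. The H2B gene lies to the left on the minus strand and the H2A gene to the right on the plus strand. Capitals mark the octamer bound by Oct-1 (ATTTGCAT, or ATGCAAAT on the other strand), the CCAAT box (or ATTGG) and TATAAA (or TTTATA).
HIST1H2BC/HIST1H2AC: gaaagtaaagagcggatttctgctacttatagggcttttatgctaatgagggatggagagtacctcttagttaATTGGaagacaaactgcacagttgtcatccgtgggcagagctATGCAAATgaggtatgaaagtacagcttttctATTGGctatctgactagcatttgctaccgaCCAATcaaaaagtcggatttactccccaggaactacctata
HIST2H2BE/HIST2H2AC: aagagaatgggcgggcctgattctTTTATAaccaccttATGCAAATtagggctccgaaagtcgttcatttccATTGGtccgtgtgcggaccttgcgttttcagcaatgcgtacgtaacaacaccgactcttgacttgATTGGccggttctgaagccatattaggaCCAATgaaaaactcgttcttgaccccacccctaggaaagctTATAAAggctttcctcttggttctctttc
The first stretch is chr6:26123927-26124144 and the second chr1:149886683-149886917, from the RefSeq promoter table of GRCh38.p14. Both hold 1 octamer and 3 CCAAT boxes. The second also holds 2 TATAAA matches, 1 on each strand. The first stretch stops at the GENCODE start of HIST1H2AC, 27 bases before the RefSeq start, and cuts through the TATAAA match that begins 31 bases before the RefSeq start. The 250-base window of HIST1H2AC therefore counts as holding TATAAA below.
In the 250 bases before the start, 59 members had a promoter in that table. The octamer was found in 11 of 14 H2A and 14 of 18 H2B promoters and in none of the 27 H1, H3 and H4 promoters, against 1.63% of all 35116 promoters. CCAAT was found in 49 of 59 member promoters (32% of all promoters), but in only 2 of 12 H4 promoters. TATAAA was found in 40 of 59 (10.7% of all promoters). The windows of 2 head-to-head genes can overlap for most of their length, as for HIST1H2BC and HIST1H2AC. The same site can then be counted for both genes, so the promoters counted are not all separate. The matches are letters in a window and say nothing of the factors.

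Library totals ranged from 23368143 to 37048703 estimated counts assigned to genes. All 12 markers of a monocytic line were expressed at testable levels. Of 14 markers of other cell types, CD3E, MS4A1 and PPBP were at 0 in every library, and the summed level of the 14 was 137 to 149 CPM (counts scaled to library size with TMM factors) in DSMZ cells and 205 to 253 CPM in ATCC cells. Most of it was PECAM1, with 128 to 141 CPM in DSMZ cells and 197 to 243 CPM in ATCC cells. PECAM1 was listed for endothelium but is not specific to it, so its level does not show cells of another type. The other 13 summed to 7.54 to 8.92 CPM in DSMZ cells and 7.78 to 10 CPM in ATCC cells. Of the 6 that were tested in the comparison described next, CD79A was higher in DSMZ cells (log2 fold change 2.13), and NCAM1 (-1.21) and PECAM1 (-0.65) were lower. The part of these markers in the histone differences was not tested. The 2 stocks differed widely: 49.8% of the 14578 genes tested passed an adjusted p of 0.05 in edgeR's quasi-likelihood test, 24.1% as higher and 25.7% as lower in DSMZ cells. Every count of histone genes below is to be read against those shares. The test and its adjustment ran over all genes, and log2 fold changes are DSMZ minus ATCC.

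All 71 members together made up a small part of the libraries, 119, 166 and 131 CPM in DSMZ cells and 108, 100 and 97.9 CPM in ATCC cells. Of the 71, 5 had no count in any library. They were HIST3H3, HIST1H2AA and HIST1H2BA, whose products are known from testis, and HIST1H4G and HIST1H4K. A count of 0 over 3 libraries allows up to 0.0338 CPM in DSMZ cells and 0.0368 CPM in ATCC cells (3 counts, counting error only). For HIST1H4K this limit does not hold, since all of its 31-base words also occur in HIST1H4J and its reads could have been assigned there. Another 8 had too few counts to be tested. Among these, HIST1H2BI had 67 estimated counts over the DSMZ libraries and 22 over the ATCC libraries, HIST1H4A 52 and 18, and HIST1H2AB 34 and 8. HIST1H2BK had 13 and 9, HIST1H2AK 10 and 5, and HIST1H3D 7 and 8. HIST1H2BK has 13.7% of its 31-base words to itself and shares 74.4% with H2BFS, a gene outside the clusters. HIST1H3D has no word to itself. Reads of these 2 genes could therefore have been assigned elsewhere, and their low counts are uncertain. The testis H1 gene HIST1H1T had 5 and 0, and HIST1H1A 0 and 1.

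The remaining 58 members passed the low-count filter. Of these, 29 were higher in DSMZ cells (24.1% of all genes), 1 was lower (25.7% of all genes) and 28 did not pass the threshold. The log2 fold change was positive for 53 and negative for 5, with a median of 0.78, against a median of 0.01 over all genes. Of the 29, 18 were at least 2-fold higher, as were 9.91% of all genes tested. In 33 members every DSMZ library was above every ATCC library (31.6% of all genes) and in 1 every DSMZ library was below (30.7%). The higher calls depended on single libraries: 14 members were called without DSMZ 2, 17 without DSMZ 3 and 19 without ATCC 3. In 13 members the higher call was made in each of the 6 fits that left out 1 library. In 9 of them it also held in the other settings, the joining of near-identical copies aside. HIST2H2AA4, whose reads are shared with such a copy, is among the 9.

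Most of the calls lay in HIST1. There, 43 of 55 members could be tested, 26 were higher in DSMZ cells and none lower, and all 43 had a positive log2 fold change, from 0.20 to 2.60 with a median of 0.95. Without DSMZ 2 the median was 0.73, 41 of 43 were positive and 12 were called. In HIST2, all 12 members were tested, and 1 was higher and 1 lower, with a median of 0.06. Of the 12, 8 were positive, against 4 without DSMZ 2, where the median was -0.11 with 1 higher and 2 lower. HIST3 had 1 higher member of 2 tested, HIST3H2BB, and the single gene of HIST4 was higher.

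**Figure D1:**
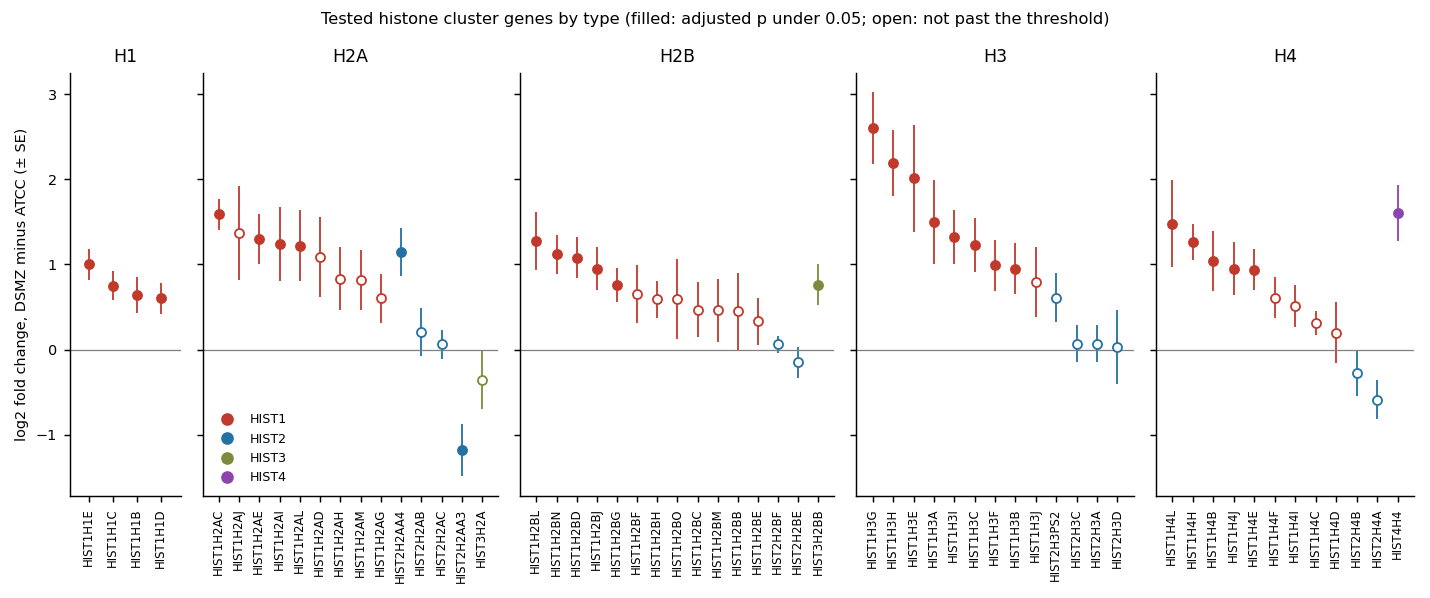
Log2 fold change (DSMZ minus ATCC, points, with SE as bars) of the 58 tested histone cluster genes in 5 panels by type, coloured by cluster, with filled points past an adjusted p of 0.05. All 43 HIST1 points lie above 0, while the 12 HIST2 points lie on both sides of it, from -1.18 to 1.15.

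Summed over its 55 members, HIST1 stood at 66.6, 102 and 78.5 CPM in DSMZ cells and 49.2, 42.1 and 44.3 CPM in ATCC cells. The means were 82.3 ± 17.9 and 45.2 ± 3.61 CPM (SD, n = 3 each), and the groups did not overlap. HIST2 summed to 50, 60.8 and 50.7 CPM in DSMZ cells and 56.5, 55.7 and 51.7 CPM in ATCC cells, and its groups overlapped. The ratio of HIST1 to HIST2 was 1.33, 1.67 and 1.55 in DSMZ cells against 0.871, 0.756 and 0.858 in ATCC cells. Per length, in TPM, the ratio was 3.11, 3.77 and 3.72 in DSMZ cells against 2.1, 1.88 and 2.04 in ATCC cells. So each DSMZ library held more HIST1 relative to HIST2 RNA than each ATCC library, whichever unit was used.

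Within the stocks, the same libraries stood at the ends for most HIST1 members. DSMZ 2 was the highest DSMZ library in 35 of the 43 tested HIST1 members and DSMZ 1 the lowest in 35 of them. ATCC 1 was the highest ATCC library in 23 of the 43.

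**Figure D2:**
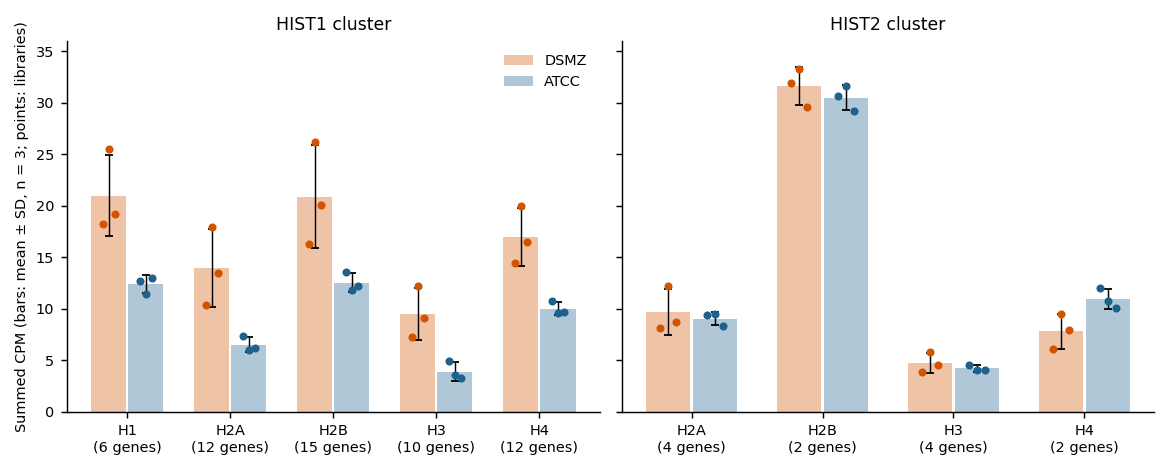
Summed CPM of the members of each histone type in HIST1 (left) and HIST2 (right), with bars for the mean ± SD of 3 libraries and points for libraries, DSMZ left of ATCC. In CPM all 5 HIST1 types have every DSMZ library above every ATCC library, H2B of HIST2 is level at 31.6 ± 1.89 and 30.5 ± 1.16 CPM, and H4 of HIST2 is lower in DSMZ cells.

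Linker histones. All 6 H1 genes lie in HIST1, and the 4 that could be tested were all higher in DSMZ cells, with log2 fold changes of 0.60 to 1.00. HIST1H1C had 6.03, 8.21 and 6.06 CPM in DSMZ cells and 4.24, 3.52 and 4.32 CPM in ATCC cells (0.75 ± 0.17 SE, adjusted p = 0.00926). HIST1H1E had 4.94, 6.55 and 5.78 CPM in DSMZ cells and 3.14, 2.35 and 3.17 CPM in ATCC cells (1.00 ± 0.18, adjusted p = 0.00291). For both genes all DSMZ libraries were above all ATCC libraries, and both calls held without any single library. HIST1H1B had 4.47, 7.47 and 4.89 CPM in DSMZ cells and 3.49, 3.52 and 3.78 CPM in ATCC cells (0.64 ± 0.21, adjusted p = 0.0387). It also did not overlap, but its call was lost without ATCC 1, ATCC 3, DSMZ 2 or DSMZ 3, with log2 fold changes of 0.37 (without DSMZ 2) to 0.74. HIST1H1D rose by 0.60 ± 0.18 (adjusted p = 0.0244), and it kept the same direction but lost its call without ATCC 1, ATCC 3, DSMZ 1 or DSMZ 2 (0.47 to 0.61). The H1 sum was 18.2, 25.5 and 19.2 CPM in DSMZ cells and 12.7, 11.4 and 13 CPM in ATCC cells.

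Core histone H2A. In HIST1, 9 of 12 H2A genes were tested and 4 were higher in DSMZ cells, with a median log2 fold change of 1.22 over the 9. HIST1H2AC gave the smallest p of all members, with 3.04, 2.80 and 2.94 CPM in DSMZ cells and 1.09, 0.984 and 0.82 CPM in ATCC cells (1.59 ± 0.18, adjusted p = 0.000311). Its 3 libraries lay close together within each stock, and the call held without any single library. HIST1H2AE had 1.30, 1.95 and 1.56 CPM in DSMZ cells and 0.706, 0.416 and 0.82 CPM in ATCC cells (1.30 ± 0.29, adjusted p = 0.00776), with no overlap. HIST1H2AI had 0.954, 1.34 and 1.36 CPM in DSMZ cells and 0.812, 0.568 and 0.178 CPM in ATCC cells (1.24 ± 0.43, adjusted p = 0.0466). The groups did not overlap, but ATCC 3 was far below the other ATCC libraries, and without it the log2 fold change was 0.81. The call was lost without ATCC 3 or any 1 of the DSMZ libraries. HIST1H2AL had 0.477, 1.38 and 0.833 CPM in DSMZ cells and 0.318, 0.492 and 0.357 CPM in ATCC cells (1.22 ± 0.42, adjusted p = 0.0439). DSMZ 1 was within the range of the ATCC libraries, and without DSMZ 2 the log2 fold change was 0.78. The call was lost without DSMZ 2, DSMZ 3, ATCC 1 or ATCC 3.

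Core histone H2B. In HIST1, 12 of 15 H2B genes were tested and 5 were higher in DSMZ cells, with a median log2 fold change of 0.62. Their summed CPM did not overlap between the stocks, but their summed TPM did, at 52, 104 and 69.2 TPM in DSMZ cells and 52.8, 41 and 42.6 TPM in ATCC cells. HIST1H2BN had 2.82, 4.21 and 3.64 CPM in DSMZ cells and 1.52, 1.36 and 2.03 CPM in ATCC cells (1.12 ± 0.23, adjusted p = 0.00479). Its annotated span overlaps HIST1H2AK and HIST1H2AL. HIST1H2BD had 1.82, 2.41 and 2.39 CPM in DSMZ cells and 1.38, 0.908 and 0.856 CPM in ATCC cells (1.08 ± 0.24, adjusted p = 0.00792). HIST1H2BL had 0.477, 0.885 and 0.667 CPM in DSMZ cells and 0.212, 0.303 and 0.321 CPM in ATCC cells (1.28 ± 0.34, adjusted p = 0.015). None of these 3 overlapped between the stocks, and only HIST1H2BL lost its call when a library was left out, at 1.05 without DSMZ 2 and 1.09 without ATCC 1. HIST1H2BH had 2.47, 3.72 and 2.86 CPM in DSMZ cells and 2.26, 2.12 and 1.64 CPM in ATCC cells, and it missed the threshold (0.59 ± 0.22, adjusted p = 0.0534).

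Core histone H3. Of the 10 H3 genes of HIST1, 9 were tested and 8 were higher in DSMZ cells, with a median log2 fold change of 1.32. HIST1H3G showed the highest fold change of any member, with 0.954, 1.84 and 1.22 CPM in DSMZ cells and 0.212, 0.341 and 0.107 CPM in ATCC cells (2.60 ± 0.42, adjusted p = 0.00177). HIST1H3H had 0.52, 0.885 and 0.917 CPM in DSMZ cells and 0.247, 0.114 and 0.143 CPM in ATCC cells (2.19 ± 0.39, adjusted p = 0.00263). HIST1H3I had 0.867, 1.27 and 1.19 CPM in DSMZ cells and 0.60, 0.265 and 0.464 CPM in ATCC cells (1.32 ± 0.32, adjusted p = 0.0109). For these 3 the DSMZ libraries were all above the ATCC libraries and the call held without any single library. The calls did not hold in every other setting of the fit. HIST1H3G and HIST1H3H rest on 18 and 14 estimated counts over the ATCC libraries. HIST1H3C had 0.52, 0.849 and 0.667 CPM in DSMZ cells and 0.212, 0.303 and 0.357 CPM in ATCC cells (1.23 ± 0.32, adjusted p = 0.0148). HIST1H3A had 0.39, 0.46 and 0.583 CPM in DSMZ cells and 0.318, 0.0757 and 0.107 CPM in ATCC cells (1.50 ± 0.49, adjusted p = 0.0346). HIST1H3E had 0.477, 0.389 and 0.611 CPM in DSMZ cells and 0.212, 0.151 and 0 CPM in ATCC cells (2.01 ± 0.63, adjusted p = 0.0307). None of the last 3 overlapped, and in HIST1H3A and HIST1H3E, which also rest on few counts, ATCC 1 was the highest ATCC library. The call of HIST1H3C was lost without DSMZ 2 (1.03) or ATCC 1 (1.01), and that of HIST1H3E without DSMZ 1 (2.02) or DSMZ 3 (1.80). That of HIST1H3A was made in the fits of all 6 libraries and without ATCC 1, and in none of the other 5 (1.19 to 1.61).

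Core histone H4. In HIST1, 9 of 12 H4 genes were tested and 5 were higher in DSMZ cells, with a median log2 fold change of 0.94. HIST1H4H had 3.25, 4.28 and 3.11 CPM in DSMZ cells and 1.73, 1.48 and 1.21 CPM in ATCC cells (1.26 ± 0.21, adjusted p = 0.00199). HIST1H4E had 2.73, 4.28 and 3.06 CPM in DSMZ cells and 2.08, 1.36 and 1.78 CPM in ATCC cells (0.94 ± 0.24, adjusted p = 0.0136). Both were free of overlap and both calls held without any single library. HIST1H4B had 0.694, 1.34 and 0.861 CPM in DSMZ cells and 0.565, 0.303 and 0.535 CPM in ATCC cells (1.04 ± 0.35, adjusted p = 0.041). HIST1H4L had 0.651, 0.885 and 0.695 CPM in DSMZ cells and 0.529, 0.151 and 0.107 CPM in ATCC cells (1.48 ± 0.51, adjusted p = 0.0429). These 2 did not overlap either, and in HIST1H4L the ATCC libraries were widely spread. Without 1 library, HIST1H4B was called without DSMZ 1 or ATCC 1 and was at 0.73 without DSMZ 2, and HIST1H4L was called without ATCC 1 only (1.09 to 1.55 in the other 5 fits). HIST1H4C had 4.25, 4.67 and 5.00 CPM in DSMZ cells and 3.42, 3.82 and 3.99 CPM in ATCC cells. Its groups did not overlap, but the log2 fold change of 0.31 ± 0.14 missed the threshold (adjusted p = 0.102). In TPM, which divides by annotated length, HIST1H4C was the highest member in both stocks. It was at 37.8 ± 2.71 TPM in DSMZ cells and 31.2 ± 1.94 TPM in ATCC cells (SD, n = 3 each). This order depends on the annotated lengths, 435 bases for HIST1H4C, and many members are annotated only to the stop codon. The H4 gene outside these clusters, HIST4H4, had 0.694, 0.814 and 0.611 CPM in DSMZ cells and 0.318, 0.151 and 0.214 CPM in ATCC cells (1.60 ± 0.33, adjusted p = 0.00501). HIST4H4 rests on 19 estimated counts over the ATCC libraries. Its call held without any single library but not in every other setting of the fit.

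The HIST2 cluster. HIST2H2BF, an H2B gene, had the highest CPM of all members and was level, with 30.6, 31.8 and 28.3 CPM in DSMZ cells and 28.9, 30.1 and 27.8 CPM in ATCC cells (0.06 ± 0.10, adjusted p = 0.629). Nearly all of its counts came from 1 transcript of 1954 bases that runs past the stem-loop. Its span, on the minus strand, overlaps FCGR1A, which encodes an Fc receptor of monocytes. FCGR1A was at 50.8 ± 3.71 CPM in DSMZ cells and 68.8 ± 5.39 CPM in ATCC cells. HIST2H2BE and HIST2H2AC, the pair whose shared promoter is printed above, changed by -0.15 ± 0.18 and 0.06 ± 0.17, and neither passed the threshold. The other 11 members without HIST2H2BF summed to 19.4, 29 and 22.5 CPM in DSMZ cells and 27.6, 25.6 and 23.9 CPM in ATCC cells, with overlap.

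**Figure D3:**
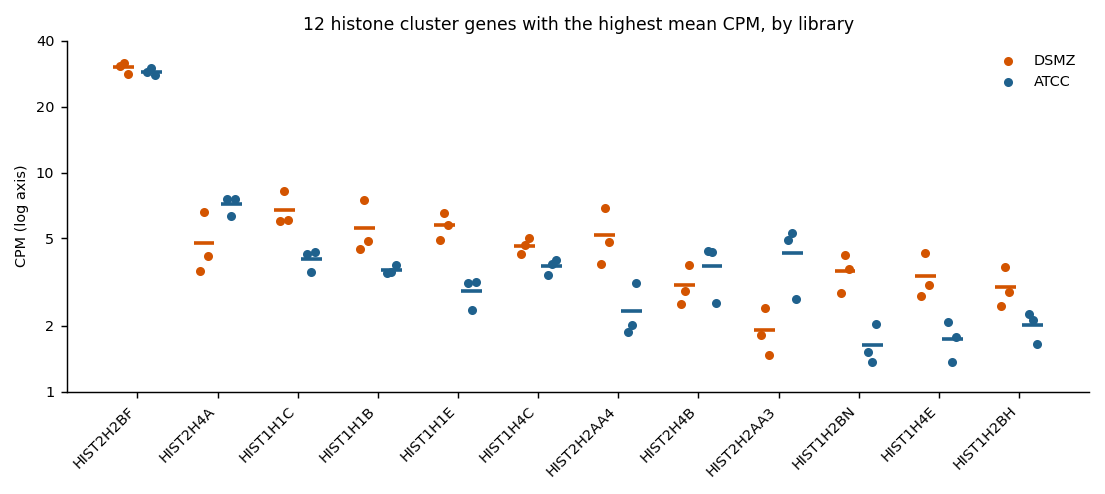
CPM (log axis) of the 12 histone cluster genes with the highest mean over all libraries, with DSMZ libraries left and ATCC libraries right for each gene, points for libraries and lines for means. HIST2H2BF is level near 30.2 and 28.9 CPM, while the HIST1 genes HIST1H1C, HIST1H1B, HIST1H1E, HIST1H4C, HIST1H2BN, HIST1H4E and HIST1H2BH have every DSMZ library above every ATCC library.

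Near-identical copies. HIST2 contains a duplicated stretch, so that some of its genes exist as copies that a read cannot tell apart. HIST2H2AA3 had no 31-base word of its own and HIST2H2AA4 had 2.81% of its words to itself. HIST2H2AA3 was the only member called lower, with 1.82, 2.41 and 1.47 CPM in DSMZ cells and 4.91, 5.30 and 2.64 CPM in ATCC cells (-1.18 ± 0.31, adjusted p = 0.0149; not called without DSMZ 3). HIST2H2AA4 was the only HIST2 member called higher, with 3.82, 6.86 and 4.83 CPM in DSMZ cells and 1.87, 2.01 and 3.14 CPM in ATCC cells (1.15 ± 0.28, adjusted p = 0.0118). Their sum was 5.64, 9.27 and 6.31 CPM in DSMZ cells and 6.78, 7.30 and 5.78 CPM in ATCC cells, and it did not pass the threshold (0.10 ± 0.21, adjusted p = 0.721). Reads shared by both copies were divided between them by kallisto, so both calls are uncertain. The sum does not depend on that division, and it overlapped between the stocks.

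**Figure D4:**
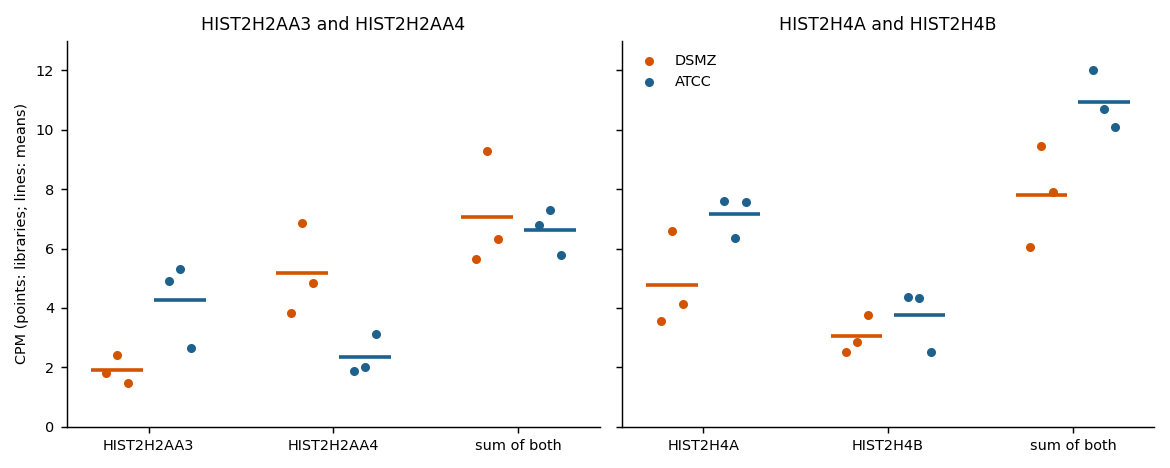
CPM of 2 pairs of near-identical HIST2 genes and of each pair's sum, with DSMZ libraries left and ATCC libraries right, points for libraries and lines for means. HIST2H2AA3 and HIST2H2AA4 move in opposite directions and their sums overlap, while the sum of HIST2H4A and HIST2H4B has every DSMZ library (6.07 to 9.45 CPM) below every ATCC library (10.1 to 12 CPM).

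The other HIST2 copies are the H4 genes HIST2H4A and HIST2H4B and the H3 genes HIST2H3A and HIST2H3C. HIST2H4A had 3.56, 6.58 and 4.14 CPM in DSMZ cells and 7.59, 6.36 and 7.56 CPM in ATCC cells (-0.59 ± 0.23, adjusted p = 0.0693). It was called lower without DSMZ 2 (-0.90, adjusted p = 0.00852) and without ATCC 2 (-0.66, adjusted p = 0.0314). HIST2H4B had 2.52, 2.87 and 3.78 CPM in DSMZ cells and 4.38, 4.35 and 2.53 CPM in ATCC cells (-0.28 ± 0.26, adjusted p = 0.392). Summed, they did not overlap between the stocks and missed the threshold, at 7.81 ± 1.69 CPM in DSMZ cells and 10.9 ± 0.953 CPM in ATCC cells (-0.48 ± 0.17, adjusted p = 0.0532). HIST2H3A and HIST2H3C were given equal counts in every library, and their sum changed by 0.07 ± 0.19. In HIST1, the summed copies HIST1H2AI and HIST1H2AJ rose (1.30 ± 0.38, adjusted p = 0.0251), and HIST1H2AM with HIST1H3J missed the threshold (0.81 ± 0.32, adjusted p = 0.0708). Among the 29 tested members with over 90% of 31-base words to themselves, 21 were higher and 0 lower. Among the 14 tested members with under 50%, 3 were higher and 1 lower. The first group holds no HIST2 member and the second holds mostly HIST2 members, so these counts mix words with cluster. The HIST2 members with over 50%, HIST2H2BF (76.6%), HIST2H2BE (87.6%) and HIST2H2AB (88.2%), changed by 0.06, -0.15 and 0.21, none called. The tested HIST1 members with under 50% were HIST1H2AD, HIST1H2AI, HIST1H2AJ, HIST1H4J and HIST1H2AM. They changed by 0.82 to 1.37, and only HIST1H2AI and HIST1H4J were called. The part of shared words in the calls was not tested.

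Head-to-head pairs. There were 12 pairs of members with starts within 500 bases of each other on opposite strands, in which 1 gene, HIST1H2BO, was counted with 2 partners. In the pair printed above from HIST1, HIST1H2AC rose by 1.59 ± 0.18 while HIST1H2BC, 219 bases away, had 0.47 ± 0.32 (adjusted p = 0.255), with 1.30, 2.41 and 1.17 CPM in DSMZ cells and 1.31, 1.21 and 0.999 CPM in ATCC cells. Both genes of 2 pairs were called, HIST1H2BG (0.76 ± 0.20) with HIST1H2AE (1.30 ± 0.29) and HIST1H2BL (1.28 ± 0.34) with HIST1H2AI (1.24 ± 0.43). The call of HIST1H2BG was lost without ATCC 1 (0.60), DSMZ 2 (0.68) or DSMZ 3 (0.73). Those of HIST1H2BL and HIST1H2AI were also lost in some of these fits, as given above. In HIST3, HIST3H2BB rose by 0.76 ± 0.24 (adjusted p = 0.0302), and HIST3H2A had -0.36 ± 0.34 (adjusted p = 0.415). The call of HIST3H2BB was lost in 5 of the 6 fits without 1 library, all but that without ATCC 1 (0.65 to 0.81). Whether the genes of a pair differ from each other in their response was not tested.

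Transcript ends. Of the 100 member transcripts, 36 are annotated only from start to stop codon and 4 are unspliced and end within 20 bases after the stem-loop. Another 40 with a stem-loop run farther or are spliced, and are called here transcripts that run past it. One of these, from HIST1H2BN, is spliced and ends 5 bases after the stem-loop. The last 20 hold no stem-loop match. In 34 genes every annotated transcript stops at the stop codon, so their 3′ ends cannot be read from these files. In HIST1, transcripts that run past the stem-loop summed to 26.2, 39.7 and 31 CPM in DSMZ cells and 18.3, 15.1 and 15.5 CPM in ATCC cells. Those annotated only over the coding part summed to 25.2, 43.1 and 30.4 CPM in DSMZ cells and 19.9, 17.3 and 18.5 CPM in ATCC cells. Both classes were without overlap, with log2 ratios of 0.99 and 0.82. Those ending at the stem-loop were few, with 2.73, 4.79 and 3.47 CPM in DSMZ cells and 2.75, 2.13 and 1.72 CPM in ATCC cells, and overlapped. In HIST2, transcripts that run past the stem-loop carried most of the counts, 45.7, 55.2 and 46.3 CPM in DSMZ cells and 51.6, 51.9 and 47.5 CPM in ATCC cells, and overlapped.

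HIST1H4H has annotated transcripts of both forms. It has a 397-base transcript that ends at the stem-loop, with 1.19, 1.44 and 1.23 CPM in DSMZ cells and 0.684, 0.357 and 0.421 CPM in ATCC cells. Its 2163-base spliced transcript runs past the stem-loop and is annotated as a target of nonsense-mediated decay. It had 2.06, 2.83 and 1.88 CPM in DSMZ cells and 1.05, 1.10 and 0.792 CPM in ATCC cells. Neither overlapped between the stocks. The 2 transcripts share sequence, and kallisto divided the gene's reads between them, with 9 to 44 estimated counts per library for the short one. Whether RNA ending at the stem-loop was present is therefore uncertain. In HIST1H2AC the counts were divided between transcripts of 1668 and 1654 bases, the first with 2.63 CPM in DSMZ 3 and none in any other library, so only the gene's sum is given here.

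Genes between the histone genes. The HIST1 stretch also holds 20 protein-coding genes that are not counted as histone genes. Of the 14 that could be tested, 9 were higher in DSMZ cells and none lower, with a median log2 fold change of 0.77, beside 0.95 for the HIST1 members and 0.01 over all genes. Summed, the 20 stood at 270, 264 and 265 CPM in DSMZ cells and 159, 133 and 147 CPM in ATCC cells, without overlap. DSMZ 2 was not raised in this sum, unlike in the HIST1 sum, and without DSMZ 2 the median of the 14 was again 0.77 with 9 called. One of the 9, AL031777.3 (0.91 ± 0.25), shares all 31-base words of HIST1H3D and 98.1% of those of HIST1H2AD, so its reads cannot be told from theirs. Without it, a count added after seeing the data, 8 of 13 were higher and none lower, with a median of 0.75. The 2 genes with a negative log2 fold change were PRSS16 (-0.63, adjusted p = 0.0535) and ZNF391 (-0.45, adjusted p = 0.183).

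The 4 neighbours with the largest fold changes past the threshold were ZNF184, BTN3A1, BTN3A2 and TRIM38. ZNF184, a zinc finger gene, had 26.8, 28.6 and 27.3 CPM in DSMZ cells and 11.2, 5.22 and 10.6 CPM in ATCC cells (1.61 ± 0.26, adjusted p = 0.00175). BTN3A1, a butyrophilin needed for phosphoantigen sensing by gamma delta T cells, had 13, 11.9 and 13.4 CPM in DSMZ cells and 5.96, 5.60 and 5.71 CPM in ATCC cells (1.15 ± 0.11, adjusted p = 0.00017). BTN3A2, of the same family, changed by 1.08 ± 0.11, and TRIM38, a ubiquitin ligase of innate immune signalling, by 0.93 ± 0.14. None of the 4 overlapped between the stocks.

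The shift reached beyond the cluster. Non-histone genes within 2 Mb of HIST1, AL031777.3 included, had a median of 0.76, with 27 of 39 higher and none lower. Along chromosome 6 the median over non-histone genes was 0.72 from 0 to 10 Mb, 0.79 from 10 to 20 Mb and 0.76 from 20 to 30 Mb, where 32 of 44 were higher. From 30 to 40 Mb it was 0.19, with 68 of 168 genes higher (40.5%) and 19 lower. From 40 to 50 Mb it was 0.09, and over the rest of the chromosome 0.03. HIST1 thus lies within a stretch from the chromosome end to about 30 Mb in which the other genes had medians of 0.72 to 0.79. The edge at 30 Mb is that of a window, and where the shift ends was not determined. The median was 0.95 both for the 25 tested HIST1 members nearer the chromosome end and for the 18 farther from it. Whether the histone genes moved with this stretch or apart from it was not tested.

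**Figure D5:**
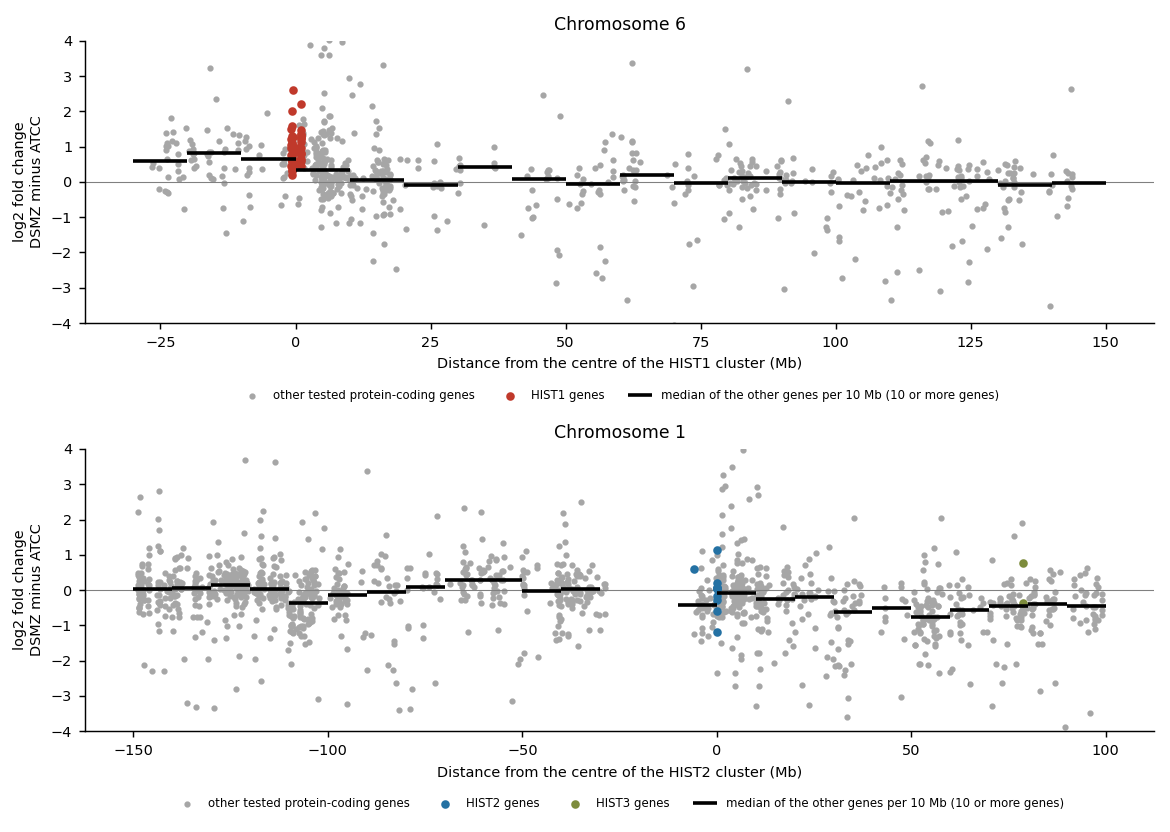
Log2 fold change (DSMZ minus ATCC) of tested protein-coding genes against the distance in Mb from the centre of HIST1 on chromosome 6 (top) and of the 11 HIST2 genes that lie together on chromosome 1 (bottom), with histone genes in colour and bars for the median of other genes per 10 Mb. The HIST1 genes and the other genes to their left lie mostly above 0, and 13 and 17 genes, none a histone gene, lie beyond the axis range of 4.

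On chromosome 1 the neighbours went the other way. Between HIST2H3PS2 and the last HIST2 gene lie 47 other protein-coding genes, of which 37 were tested, 2 were higher and 20 lower in DSMZ cells, with a median of -0.44. ACP6, a lysophosphatidic acid phosphatase, had 4.34, 3.57 and 5.03 CPM in DSMZ cells and 9.74, 12 and 10.5 CPM in ATCC cells (-1.31 ± 0.16, adjusted p = 0.0005). ANKRD35 changed by -1.44 ± 0.16, and FAM72C and NBPF10, which belong to families of near-identical copies and are uncertain for that reason, by -1.25 ± 0.11 and -1.22 ± 0.13. Within 2 Mb of the 11 HIST2 genes that lie together the median was -0.15 over 63 genes, with 12 higher and 20 lower. The HIST2 members themselves had 0.06. Over all 1375 tested protein-coding genes of chromosome 1 that are not members, the median was -0.14, with 215 higher and 456 lower. Around HIST3 it was -0.56 over 26 genes, with 1 higher and 19 lower. Around HIST4H4, on chromosome 12, it was 0.50 over 18 genes, with 9 higher and 2 lower. Over all 705 such genes of chromosome 12 it was 0.18, with 260 higher and 143 lower.

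Other histone genes. The lists that follow come from general knowledge of histone biology. Genes for replication-independent histones, which mostly lie alone, give poly(A) mRNA and are made outside S phase too, did not move in 1 direction: of 20 listed, 12 were tested, 4 were higher and 5 lower, with a median of -0.10. Among the 12 is H2BFS, not called, which holds 74.4% of the 31-base words of HIST1H2BK. H2AFY2, a macroH2A gene, had 27.7, 23.9 and 22 CPM in DSMZ cells and 6.35, 6.85 and 5.99 CPM in ATCC cells (1.94 ± 0.13, adjusted p = 3.87e-05). H1F0, the linker histone of cells that stop dividing, had 108, 114 and 95.8 CPM in DSMZ cells and 287, 282 and 243 CPM in ATCC cells (-1.35 ± 0.11, adjusted p = 7.89e-05). H1FX, another linker histone gene outside the clusters, also fell (-0.60 ± 0.13), while the 4 tested H1 genes of HIST1 rose. Genes for the same kind of histone went opposite ways. H2AFY, the other macroH2A gene, had 602 ± 55 CPM in DSMZ cells and 833 ± 25.6 CPM in ATCC cells (SD, n = 3 each) and fell by 0.47 ± 0.09 (adjusted p = 0.00401). Of the genes for the replacement H3, H3F3B rose by 0.79 ± 0.08, while H3F3A fell by 0.30 ± 0.07 (adjusted p = 0.0111), with 888 ± 8.2 CPM in DSMZ cells and 1092 ± 44.6 CPM in ATCC cells. H2AFZ rose by 0.26 ± 0.07 (adjusted p = 0.0203; the call was lost without any library but ATCC 2), and H2AFX had 0.10 ± 0.13 (adjusted p = 0.539).

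Genes that make and end histone mRNA. Of 27 genes for histone transcription and 3′ end processing, all tested, 5 were higher and 10 lower in DSMZ cells, with a median of -0.09. SLBP, which binds the stem-loop, had 140, 143 and 139 CPM in DSMZ cells and 149, 154 and 144 CPM in ATCC cells (-0.09 ± 0.08, adjusted p = 0.41). NPAT, the coactivator of histone genes in S phase, had 36.2, 33.1 and 33.8 CPM in DSMZ cells and 33.4, 11.6 and 21.9 CPM in ATCC cells (0.62 ± 0.33, adjusted p = 0.151), with a wide spread in ATCC cells. The changes past the threshold were greatest for MBLAC1, a histone pre-mRNA nuclease (-1.06 ± 0.25), SNRPB, an Sm protein (0.95 ± 0.11), LSM1, of the decapping complex (-0.93 ± 0.09), and ZNF473, a protein of the U7 complex (-0.90 ± 0.11). RNAs that are known to lack a poly(A) tail were not analysed here.

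Chaperones and S phase. Of 21 histone chaperone genes, all tested, 7 were higher and 4 lower, with a median of 0.19. DNAJC9, which carries H3 and H4, had 113, 114 and 107 CPM in DSMZ cells and 43.5, 42.1 and 41.3 CPM in ATCC cells (1.39 ± 0.09, adjusted p = 2.97e-05). RBBP7, on the X chromosome, fell by 1.02 ± 0.08, and NAP1L1 and NASP rose by 0.87 ± 0.12 and 0.54 ± 0.12. Of 25 S phase genes, all tested, 13 were higher and 3 lower, with a median of 0.28. Their summed level was 5541, 5645 and 5343 CPM in DSMZ cells and 5110, 5124 and 4979 CPM in ATCC cells, without overlap. In TPM the sums overlapped, at 3530, 3644 and 3353 TPM in DSMZ cells and 3409, 3159 and 3165 TPM in ATCC cells. PCNA, the replication clamp, had 276, 271 and 262 CPM in DSMZ cells and 120, 107 and 111 CPM in ATCC cells (1.26 ± 0.09, adjusted p = 4.19e-05). CDC6 and CDC25A rose by 0.94 ± 0.09 and 0.85 ± 0.10, and MCM4 fell by 0.61 ± 0.08. The calls in this list moved with the libraries: 7 genes in either direction were called without DSMZ 2 and 8 without ATCC 3, in place of 16. Relative to this sum, HIST1 RNA was 1.2%, 1.8% and 1.47% in DSMZ cells and 0.963%, 0.823% and 0.891% in ATCC cells, again without overlap. The part of S phase in the histone differences was not tested.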

How the data were processed

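Poly(A) RNA was prepared with TRIzol, RNeasy columns and a KAPA stranded kit, per the labels' protocols. The submitters' processing notes name bcl2fastq 2.20, Trimmomatic 0.35, kallisto 0.43.0 and GRCh38. The annotation behind the transcripts was not given in the sources used here. Deposited files give estimated counts and TPM for each of 179973 transcripts, per the file headers. Here 163714 transcripts were matched to GENCODE 29 by identifier and 14222 by symbol, and 2037 had no gene and were left out. Estimated counts were summed per gene and rounded. Genes were tested with edgeR 4.0.16 in R 4.3.3 (filterByExpr, TMM, quasi-likelihood F test, stock as the only term), with Benjamini-Hochberg adjustment at 0.05 over 14578 genes. The standard error is the absolute log2 fold change over the square root of F. The biological coefficient of variation was 15.9%. The test was tried on simulated counts first. P-values measure the spread between expansions of 1 stock from each repository. Sums by type or cluster were given no test. Other normalizations, filters, tools, a length offset, a GC correction, a replicate block and leaving out each library were tried as alternatives. Copies were joined where 80% of a gene's 31-base words occurred in another gene. Values in every library are given for the 12 members with the highest mean CPM and for those called with at least a 2-fold change, and up to 4 genes with the largest changes past the threshold are named per list, with SLBP, NPAT, H2AFX and H2AFZ. H2AFY, H3F3A, PECAM1, PRSS16, ZNF391 and AL031777.3 were named after their values were seen. Members, lists and rules were chosen with earlier results of these data known.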

Additional observations from a re-analysis of the deposited data

How the results depend on the processing

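The 29 higher calls among histone cluster genes came to 19 with DESeq2, 19 with the transcript length offset and 13 with a filter of 1 CPM in 3 libraries, which tests only 28 members, and to 14 to 29 when each library was left out in turn. In the same 6 fits 5509 to 9515 genes in all were called, against 7264. The other settings, the replicate block aside, gave 25 to 32. The 1 lower call came to 2 with upper quartile factors, to 0 to 2 without each library in turn and to 0 with near-identical copies joined, an alternative chosen after seeing the data, which gave 29 higher calls. Among named genes the directions that turned were those of HIST2H2BF, -0.02, and HIST2H2AC, -0.01, both with upper quartile factors, and of HIST2H3A and HIST2H3C, each -0.01 with upper quartile factors and at -0.11 (without DSMZ 2) to 0.19 (without DSMZ 1) when each library was left out. None of these was called. With upper quartile factors 3 of the 12 HIST2 members were positive, against 8. Calls in either direction, without each library in turn, came to 9 to 20 for the transcription and processing genes (9 with the length offset), 7 to 15 for the chaperone genes, 7 to 20 for the S phase genes, 6 to 10 for the replication-independent histone genes and 26 to 39 for the genes between cluster members. The log2 ratio of summed TPM was 0.53 for H2B, 0.54 for H4 and 1.04 for HIST4, and the other sums by type or cluster moved by less than their spread, although HIST3 turned from 0.10 to -0.18 with overlap in both units. The summed transcription and processing genes overlapped in CPM (0.01) and were lower in TPM (-0.25), with 2304 ± 33.4 TPM in DSMZ cells and 2743 ± 78.7 TPM in ATCC cells. Whether same-numbered libraries pair is not settled. Their deviations correlated at 0.0125, 0.0803 and 0.161, against -0.103 to 0.0258 for unlike-numbered libraries. A replicate block gave 22 higher calls (31 with the GC correction). The cause of these changes was not tested. Depth limits the low members most, 13 of which could not be tested.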
